A study of Homo sapiens with 58 samples.

Results

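The apolipoprotein genes described here are APOB, APOA1, APOA2, APOE and APOH. Their members are all peaks of the deposited HuR CLIP-seq peak table that carry 1 of these 5 gene names, after repeated lines were dropped. The rule found 75 of the table's 387214 peaks, namely 65 in APOB, 6 in APOH, 2 in APOA2, 2 in APOE and none in APOA1. Each of the 75 peaks is 20 nt long and lies inside the RefSeq bounds of its gene (assembly GRCh38.p14), on the gene's strand.

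The 58 libraries come from Huh-7.5, a human hepatocellular carcinoma line, and hold RNA crosslinked to HuR, the RNA-binding protein encoded by ELAVL1. CLIP-seq crosslinks protein to RNA in living cells with ultraviolet light (254 nm, 400 and then 200 mJ/cm2 here), immunoprecipitates the protein and sequences the attached RNA fragments, counted here as tags. Cells were mock treated or received 0.5 mM sodium arsenite for 45 min. Of the libraries, 12 (3 in each of 4 groups) are nuclear or cytoplasmic fractions of wild-type cells without an APEX reaction. The other 46 come from 3 lines expressing APEX, a peroxidase that tags proteins in its vicinity with biotin: APEX-NLS (nucleus), APEX-NES (cytoplasm) and APEX-G3BP1 (stress granules, called G3BP below). All of these received 0.5 mM biotin phenol for 30 min and 1 mM hydrogen peroxide for 1 min, mock groups included. Enriched libraries had a streptavidin capture besides the HuR immunoprecipitation, and input libraries did not. In each treatment there were 2 inputs and 4 captures (enriched libraries) of NLS, and as many of NES. For G3BP there were 4 inputs and 6 captures in mock cells, and 5 inputs and 7 captures after arsenite. The promoter of the APEX constructs and the number of clones per line are not given in the sources used here. The labels do not say that replicates came from separate cultures, so p-values measure only the spread between these libraries.

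Apolipoproteins are the protein part of the particles that carry lipid in blood, and hepatocytes secrete most of them. APOB encodes the structural protein of very-low-density and low-density lipoprotein, and its transcript is among the longest coding transcripts of the liver. APOA1 and APOA2 encode the main proteins of high-density lipoprotein, APOE encodes a ligand for receptors that clear lipoprotein remnants, and APOH encodes beta-2-glycoprotein I, a phospholipid-binding plasma protein. HuR binds U-rich and AU-rich RNA in introns and 3'UTRs, resides mostly in the nucleus and can move to the cytoplasm under stress. Arsenite is an oxidative stressor that blocks translation initiation and leads to stress granules, of which G3BP1 is a core protein.

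Depth differed widely between libraries. Tags in peaks numbered 235471 to 673322 in fraction libraries, 1353 to 484305 in input libraries and 519 to 86419 in enriched libraries. Values are given as CPM, tags per 1000000 of the library total. Of 8 genes listed as hepatocyte markers, 7 had peaks (ALB, AFP, TF, SERPINA1, FGB, AHSG and HNF4A) and TTR had none. Their summed level was 1922 to 2597 CPM in cytoplasmic mock libraries and 1116 to 1190 in nuclear mock libraries. Over all libraries AFP held the most of their tags (13735), ahead of ALB (3784) and HNF4A (3539). Of 8 markers of leukocytes, endothelium, fibroblasts and macrophages, 3 had peaks (PTPRC, PECAM1 and LYZ), and their sum did not exceed 21.1 CPM in any fraction library.

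APOB (ENSG00000084674, chr2:21001429-21044073, minus strand, 42.6 kb) held 3353 tags, of which 2229 were in fraction, 943 in input and 181 in enriched libraries. It had at least 1 tag in 52 of 58 libraries. Peaks classed as coding sequence (CDS) numbered 32 and held 2143 tags. The 21 intron peaks held 745 tags, the 9 3'UTR peaks 435, and the 3 peaks in transposable elements (TE) 30. Thus the coding class held most of the APOB tags.

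Among all 1714 genes with a CDS peak, APOB had the most, 32 against 16 in the next gene, although it ranked 1193 by its number of peaks of any class. By tags in CDS peaks it ranked 2. These counts were not scaled to the length of the coding sequence. CDS peaks made up 49.2% of the APOB peaks and 0.676% of all peaks, and APOB alone held 1.22% of the table's 2619 CDS peaks. The table's order of classes bears on this count, since 63618 peaks annotated both CDS and retained intron are classed as intron there. None of the APOB peaks carries that double annotation.

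The peaks were unevenly spread along the gene. All 32 CDS peaks lay between 33.05 and 42.27 kb from the annotated start, and the intron peaks lay between 0.886 and 31.1 kb. Of the 9 3'UTR peaks, 2 lay within 1 kb of the gene's end and 7 elsewhere, each of these 7 also annotated as CDS or intron of APOB transcripts. A peak held 31 tags at the median (range 6 to 256), and the 10 largest held 48.4% of the gene's tags. CDS peaks chr2:21002369-21002389 and chr2:21010615-21010635 had 256 tags each and were the largest, ahead of CDS peak chr2:21007722-21007742 with 224. The map of mean tags along the gene shows coding peaks crowded towards the 3' end of the gene and larger on the cytoplasmic side. Exon positions were not at hand, so the spread of the classes was not set against the coding exons of the gene.

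**Figure D1:**
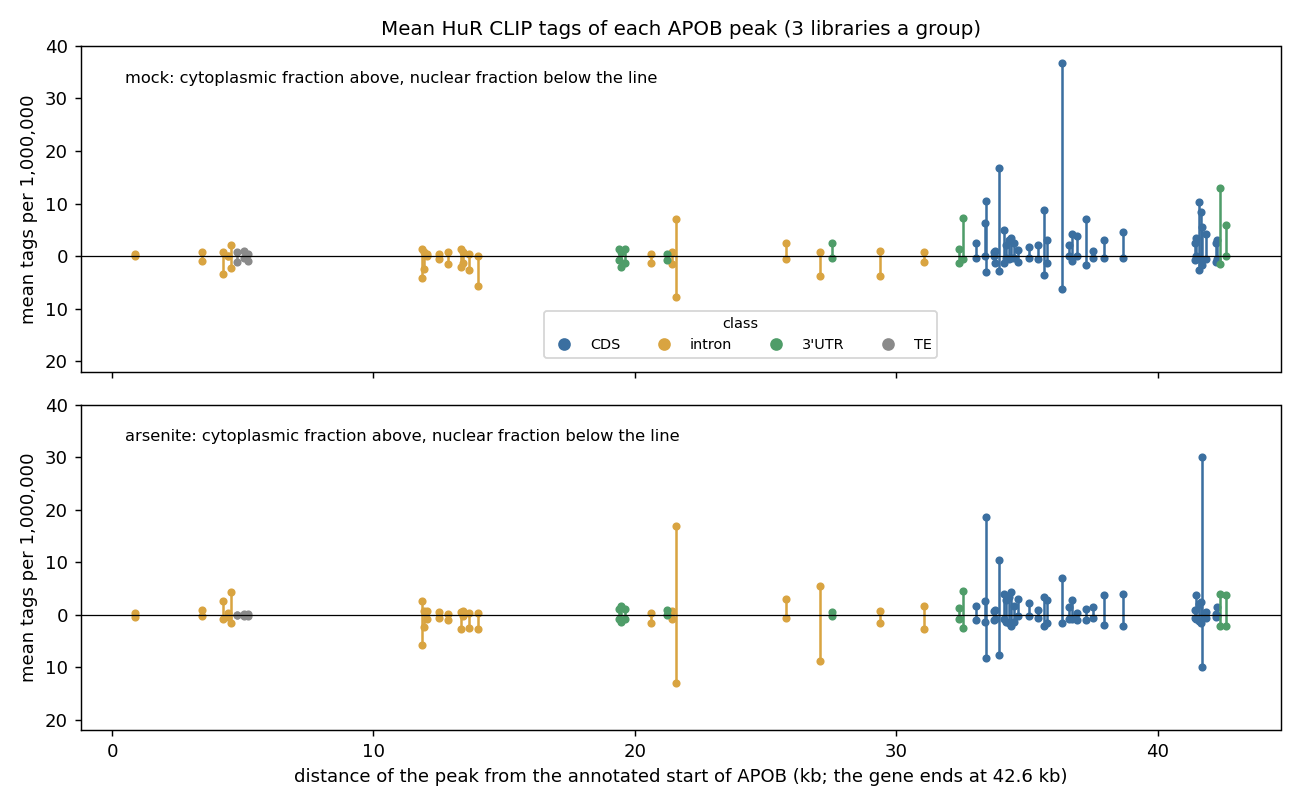
Mean CPM (3 libraries a group) of each of the 65 APOB peaks against its distance in kb from the annotated gene start, with the cytoplasmic fraction above and the nuclear fraction below the line, in mock (upper) and arsenite (lower) libraries, coloured by class. The tallest cytoplasmic line stands at the CDS peak 36.3 kb from the start in mock libraries (36.8 CPM) and at the CDS peak 41.7 kb from the start in arsenite libraries (30.1 CPM).

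Summed over its peaks, APOB was highest in the cytoplasmic fractions. The cytoplasmic mock libraries had 164, 270 and 231 tags and 231 ± 51.4 CPM (mean ± SD, n = 3), and the cytoplasmic arsenite libraries 284, 321 and 255 tags and 188 ± 14.7 CPM. The nuclear mock libraries had 71, 112 and 78 tags and 93.5 ± 15.8 CPM, and the nuclear arsenite libraries 168, 154 and 121 tags and 121 ± 14.99 CPM. Every nuclear library lay below every cytoplasmic library. In an order of all 16 groups by mean CPM, the 4 fraction groups came first, followed by arsenite inputs of NES (80.3 ± 78.9 CPM, n = 2) and NLS (74.5 ± 63.4, n = 2). Only 2 of the 15 gaps between neighbours exceeded the larger SD of the pair, from cytoplasmic arsenite to nuclear arsenite and from there to nuclear mock. Over pooled tags, arsenite inputs of NES (110 CPM) stood above nuclear mock libraries (92.5 CPM). All fraction libraries belong to library set JL0380, which holds no APEX library, so the step from fractions to APEX lines cannot be told apart from that set.

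**Figure D2:**
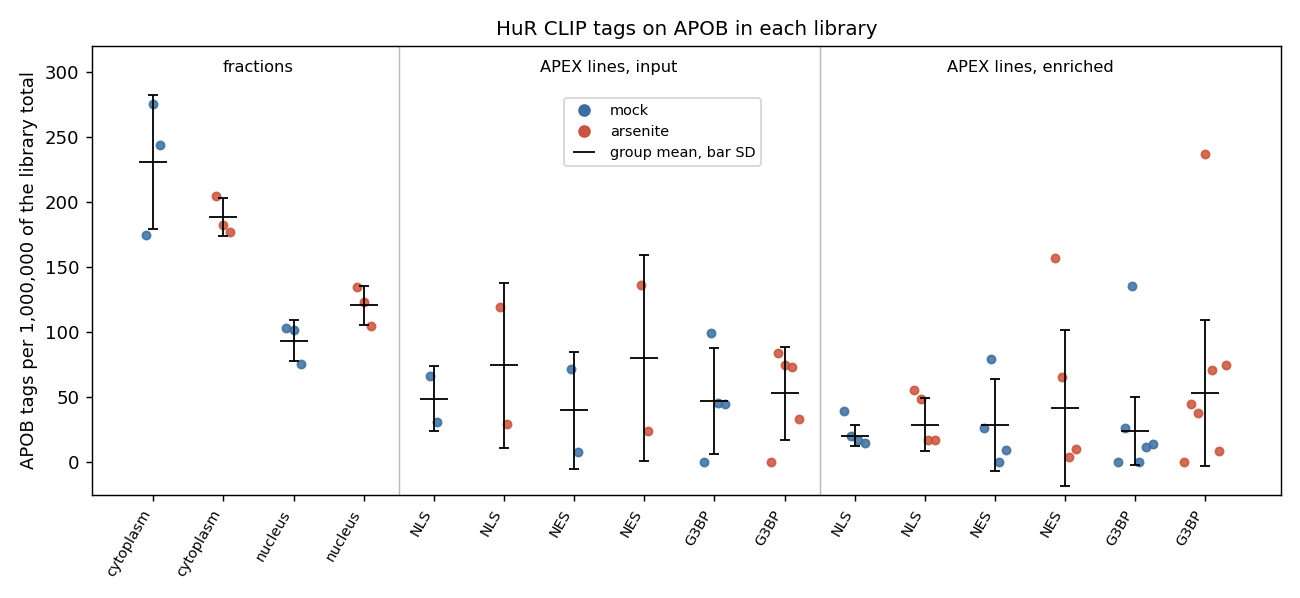
APOB CPM, summed over its 65 peaks, in each of the 58 libraries, by group; points are libraries, long ticks group means and bars SD, with libraries of agreeing pairs averaged before the mean. The fraction libraries lie between 75.3 and 275 CPM with cytoplasm above nucleus, and 1 G3BP enriched arsenite library stands at 237 CPM.

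APOB tags were lower in the nucleus than in the cytoplasm of mock-treated cells, by 1.27 ± 0.17 on the log2 scale (estimate ± SE). In limma across all genes the adjusted p was 6.5e-05, and the call held without any 1 of the 6 libraries. It was the only one of 4 tested members called, where 32.2% of 10690 genes were called. All log2 differences are of log2(CPM + 2.28), which understates changes of low values, and adjusted p-values are Benjamini-Hochberg adjusted over the whole table with a threshold of 0.05. Tags depend both on how much of an RNA is present and on how much of it is bound, and these cannot be told apart here.

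The classes of APOB went in opposite directions. CDS peaks held 115, 205 and 177 tags in cytoplasmic mock libraries (173 ± 44.9 CPM) and 25, 44 and 31 in nuclear ones (35.5 ± 5.11 CPM), a difference of -2.19 ± 0.21 (limma, adjusted p = 4.3e-06). The 3'UTR peaks held 31, 43 and 23 tags in the cytoplasm (33.7 ± 9.79 CPM) and 6, 12 and 7 in the nucleus (8.80 ± 2.08 CPM), a difference of -1.68 ± 0.27 (adjusted p = 0.00043). Both classes were thus lower in every nuclear library than in any cytoplasmic library. Intron peaks held 18, 19 and 28 tags in the cytoplasm (22.7 ± 5.93 CPM) and 37, 54 and 39 in the nucleus (46.9 ± 8.35 CPM), a difference of +0.99 ± 0.23 (adjusted p = 0.0056), again without overlap. That intron call was lost without cytoplasmic mock replicate 2 or nuclear mock replicate 1, where the adjusted p reached 0.069. Of the 7 member classes tested, 3 were called, where 29.6% of 21294 gene classes were called; TE peaks of APOB differed by 0.14 (adjusted p = 0.84).

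**Figure D3:**
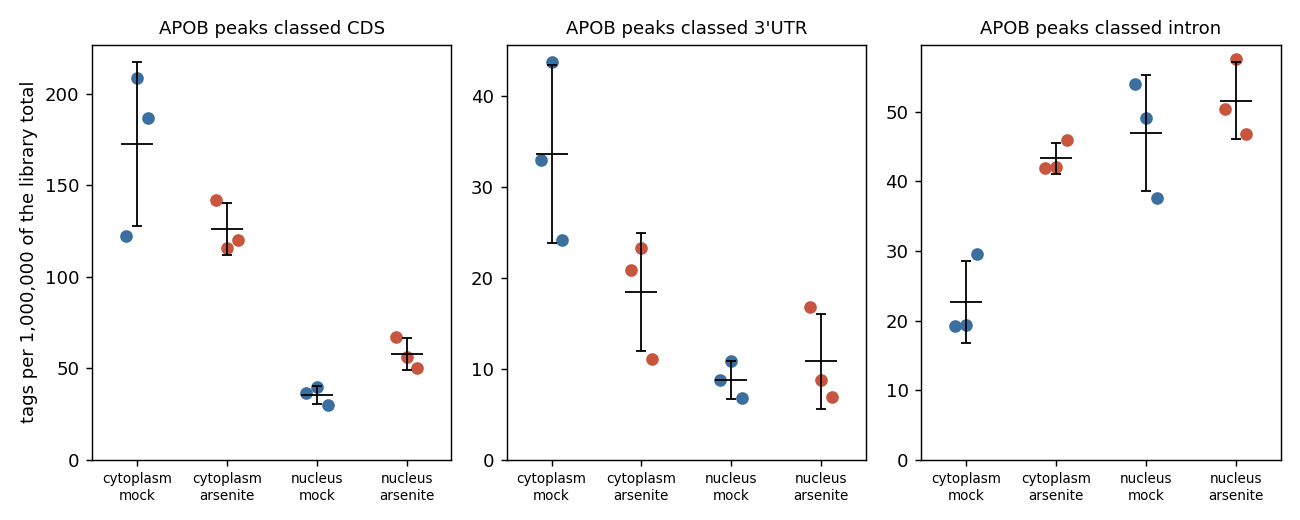
CPM of APOB summed over its CDS, 3'UTR and intron peaks in the 12 fraction libraries; points are libraries (blue mock, red arsenite), long ticks means and bars SD (n = 3), each panel with its own axis from 0. CDS peaks fall from 173 CPM in cytoplasmic mock to 35.5 in nuclear mock libraries, while intron peaks go from 22.7 to 46.9.

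As a share of APOB tags, introns held 10.0% ± 2.67 in cytoplasmic mock libraries and 50.1% ± 1.95 in nuclear mock libraries (n = 3 each). CDS peaks held 74.2% ± 3.57 and 38.1% ± 2.50, and 3'UTR peaks 14.9% ± 4.56 and 9.38% ± 1.19. The intron and CDS shares of the fractions did not overlap. Within the 3'UTR class, the 2 peaks at the gene's end went from 18.8 ± 7.28 CPM in the cytoplasm to 1.58 ± 1.47 in the nucleus, and the 7 peaks elsewhere from 14.9 ± 3.97 to 7.23 ± 1.68. This split of the class by position was made after its values were seen and was not tested.

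At single peaks, 8 of 62 tested member peaks were called between mock fractions, 7 lower and 1 higher in the nucleus, all in APOB, where 2.82% of 157168 peaks were called. Of the 7 lower peaks, 5 were CDS and 2 were 3'UTR peaks. The largest was CDS peak chr2:21007722-21007742, with 24, 42 and 40 tags in the cytoplasm and 6, 5 and 6 in the nucleus, a difference of -2.17 ± 0.31 (adjusted p = 0.0058). The 3'UTR peak chr2:21001673-21001693, 0.254 kb from the gene's end, had 37 cytoplasmic and 4 nuclear tags and a difference of -2.02 ± 0.38 (adjusted p = 0.023). The higher peak was intron peak chr2:21030060-21030080, with 6, 5 and 4 tags in nuclear and none in cytoplasmic mock libraries. It was thus at least 5.09-fold higher in the nucleus, taking 3 tags over the group as the floor. This peak met the filter only through the nuclear libraries, so its call is no support for a difference. The same holds for 3 of the 7 lower peaks, which had no tag in nuclear mock libraries. These 3 named calls were lost without cytoplasmic mock replicate 1, 2 or 3 or nuclear mock replicate 2 or 3 (adjusted p up to 0.175), and edgeR with TMM called 1 of the member peaks.

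After arsenite, APOB was again lower in the nucleus than in the cytoplasm. The gene-level difference was -0.63 ± 0.11 (limma, adjusted p = 0.00017), and it was lost without cytoplasmic arsenite replicate 2 (adjusted p = 0.054). Again 1 of 4 members was called, where 8.02% of 11561 genes were called. CDS peaks summed to 142, 116 and 120 CPM in the cytoplasm and 67.3, 56.0 and 50.2 CPM in the nucleus. Their difference was -1.10 ± 0.13 (adjusted p = 6.3e-06), and the call held without any 1 of the 6 libraries. The 3'UTR peaks differed by -0.68 ± 0.28 (adjusted p = 0.19) and the intron peaks by 0.24 ± 0.15 (adjusted p = 0.44), so neither passed the threshold. The 1 called class stood among 7 tested, where 4.98% of 23821 gene classes were called.

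Among single peaks, 1 of 62 was called between arsenite fractions, where 0.257% of 236332 peaks were called. This was CDS peak chr2:21002369-21002389, with 45, 43 and 48 tags in the cytoplasm and 12, 11 and 13 in the nucleus, a difference of -1.40 ± 0.24 (limma, adjusted p = 0.021). The call was lost whichever of the 6 libraries was left out (adjusted p 0.12 to 0.35). Over the whole table, such smaller fits called 0 to 57 peaks in place of 608.

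In the cytoplasm, the summed APOB tags did not pass the threshold after arsenite, while the intron class and 3 single peaks did. The gene-level difference, arsenite minus mock, was -0.27 ± 0.15 in the cytoplasm (limma, adjusted p = 0.24) and passed the threshold only without cytoplasmic mock replicate 1 (-0.46, adjusted p = 0.013). None of 4 members was called and none had an unadjusted p under 0.05. Of all 11387 genes 20.1% were called and 3739 had an unadjusted p under 0.05. In edgeR no member was called either. Hepatocyte markers, most of whose tags over all libraries were of AFP, summed to 933 to 1059 CPM in the cytoplasm after arsenite, below all cytoplasmic mock libraries. The 3 markers of other cell types also summed to less there, 5.56 to 7.39 CPM after arsenite against 17.3 to 21.1 in mock libraries. The part of either list in the APOB values was not tested.

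Intron peaks of APOB rose in the cytoplasm after arsenite, from 22.7 ± 5.93 to 43.3 ± 2.28 CPM (n = 3 each), with every arsenite library above every mock library. The difference was +0.89 ± 0.21 (limma, adjusted p = 0.0101). It was 1 call among 7 member classes, where 13.3% of 22956 gene classes were called, and it was lost without cytoplasmic arsenite replicate 1, 2 or 3 or cytoplasmic mock replicate 2 (adjusted p up to 0.107). CDS peaks had 173 ± 44.9 CPM in mock and 126 ± 14.1 in arsenite libraries, a difference of -0.42 ± 0.19 (adjusted p = 0.16). The 3'UTR peaks had 33.7 ± 9.79 and 18.5 ± 6.46 CPM, a difference of -0.81 ± 0.27 (adjusted p = 0.058), which passed the threshold in 6 of 10 other settings, edgeR among them. The intron share of APOB tags went from 10.0% ± 2.67 to 23.1% ± 2.73.

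Among the intron peaks, chr2:21022506-21022526 and chr2:21016974-21016994 held the most fraction tags. These 2 peaks, singled out after their values were seen, had 22 cytoplasmic tags in mock and 103 in arsenite libraries (7.70 ± 2.31 and 22.4 ± 2.56 CPM). The other 19 intron peaks had 43 and 95 tags (14.98 ± 4.74 and 20.9 ± 1.90 CPM). The 2 peaks thus held the larger part of the added CPM. None of the 15 intron peaks tested was called on its own.

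At single peaks, arsenite moved coding sites of APOB in both directions in the cytoplasm: 1 rose and 2 fell of 60 tested member peaks, where 0.76% of 193897 peaks were called. CDS peak chr2:21002369-21002389, 0.95 kb from the gene's end, rose from 4, 4 and 8 tags to 45, 43 and 48 (5.59 ± 2.47 to 30.1 ± 4.92 CPM). The difference was +2.07 ± 0.29 (limma, adjusted p = 0.0138). CDS peak chr2:21007722-21007742, 6.30 kb from the gene's end, fell from 24, 42 and 40 tags to 6, 11 and 15 (36.8 ± 9.79 to 7.01 ± 3.12 CPM). Its difference was -2.09 ± 0.32 (adjusted p = 0.0196). CDS peak chr2:21006818-21006838 fell from 20 to 5 tags, a difference of -1.45 ± 0.27 (adjusted p = 0.047). The groups overlapped at none of the 3 peaks.

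These peak calls depended on single libraries, as did those of the whole table, where fits with 1 library left out called 0 to 16959 peaks in place of 1473. All 3 were lost without cytoplasmic mock replicate 1, 2 or 3 (adjusted p up to 0.245), and that at chr2:21007722-21007742 also without cytoplasmic arsenite replicate 2 (adjusted p = 0.057). The log2 differences themselves stayed between 1.94 and 2.32 for the peak that rose and between -2.35 and -1.87 for chr2:21007722-21007742. The fall at chr2:21006818-21006838 was also lost with no filter, with scaling to tags in peaks and in edgeR with TMM.

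Set against each other within a library, both large peaks changed places. Of the tags in chr2:21002369-21002389 and chr2:21007722-21007742 together, the former held 13.2% ± 4.09 in cytoplasmic mock and 81.4% ± 6.204 in cytoplasmic arsenite libraries. In the nuclear fraction it held 21.4% ± 10.4 and 86.2% ± 5.23 (n = 3 in each group). No arsenite library overlapped a mock library in this share, which does not depend on the library total. The share was chosen after both peaks had been called and was not tested.

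The input libraries of the APEX lines, which played no part in those calls, were examined at the 3 peaks after their tags had been seen. At chr2:21002369-21002389 the 9 arsenite inputs held 50 tags in 7 libraries, and the 8 mock inputs 1 tag in 1 library. By line, NLS had 17 arsenite tags and 1 mock tag, NES 3 and 0, and G3BP 30 and 0. The log2 difference was +1.51, with p = 0.00226 in a two-sided exact permutation test and 0.00679 after Benjamini-Hochberg adjustment over the 3 peaks. When labels were exchanged only within line and library set, an exact permutation test added afterwards gave p = 0.0125 (adjusted 0.0375). The other peaks showed no such difference: chr2:21007722-21007742 had 26 arsenite and 28 mock tags (-0.17, exact permutation p = 0.747, adjusted 0.747). Peak chr2:21006818-21006838 had 10 and 12 tags (-0.27, exact permutation p = 0.355, adjusted 0.532). The peak that rose in the cytoplasm was thus higher in arsenite inputs, and at the peaks that fell no difference was detectable at this depth.

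**Figure D4:**
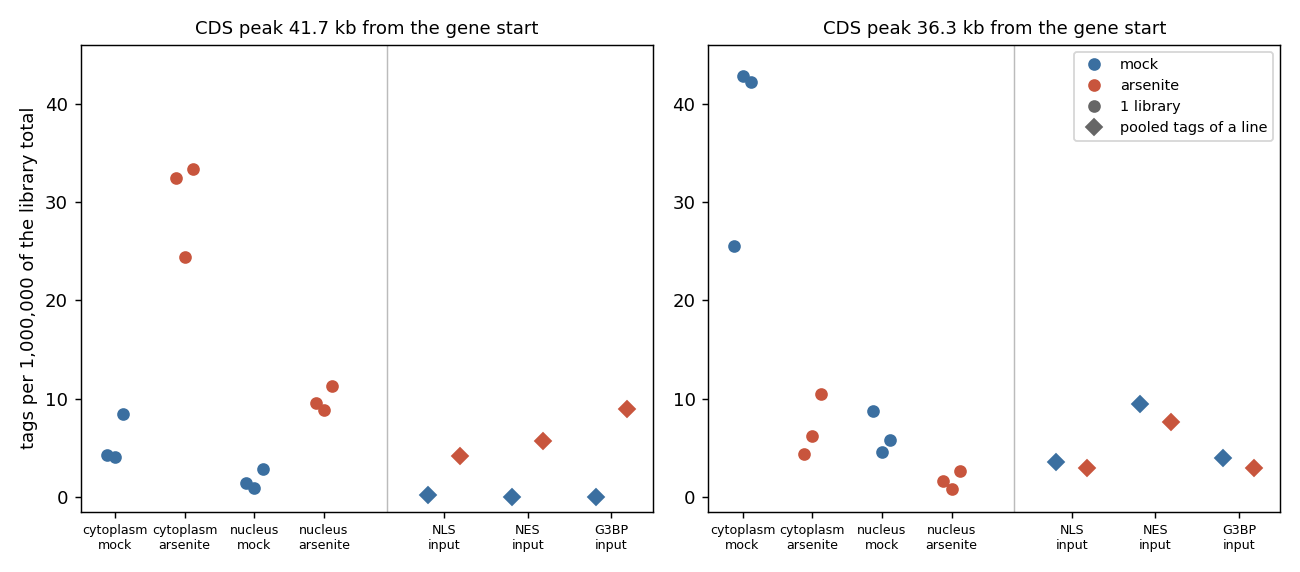
CPM at CDS peak chr2:21002369-21002389 (left) and CDS peak chr2:21007722-21007742 (right); circles are single fraction libraries and diamonds the pooled tags of the input libraries of a line, blue mock and red arsenite. The left peak is higher in arsenite in both fractions and in each line, from 5.59 to 30.1 CPM in the cytoplasm; the right peak goes from 36.8 to 7.01 CPM in the cytoplasm.

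In the nuclear fraction, CDS peaks of APOB rose after arsenite, from 35.5 ± 5.11 to 57.8 ± 8.66 CPM, with every arsenite library above every mock library. The difference was +0.67 ± 0.17 (limma, adjusted p = 0.028), 1 call among 6 member classes, where 6.13% of 22243 gene classes were called. Of the 6 libraries, only nuclear mock replicate 2 could be left out without losing the call (adjusted p 0.045 to 0.18 over the 6 fits). Without peak chr2:21002369-21002389, which went from 5 to 36 nuclear tags, the other 31 CDS peaks had 33.7 ± 6.13 CPM (27.0 to 39.1) in mock and 47.9 ± 9.36 CPM (38.98 to 57.7) in arsenite libraries, so that the groups overlapped. In the cytoplasm the same 31 peaks had 167 ± 44.4 and 96.1 ± 12.1 CPM. Nuclear hepatocyte markers summed to 698 to 753 CPM after arsenite, below the 1116 to 1190 CPM of nuclear mock libraries. The markers of other cell types summed to 2.40 to 4.33 CPM against 4.83 to 8.18.

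Other nuclear values of APOB did not pass the threshold. Intron peaks had 46.9 ± 8.35 and 51.6 ± 5.50 CPM (difference 0.14 ± 0.17, limma, adjusted p = 0.69), and 3'UTR peaks 8.80 ± 2.08 and 10.8 ± 5.25 CPM (0.19 ± 0.31, adjusted p = 0.80). At gene level the difference was 0.37 ± 0.13 (adjusted p = 0.11), where 7.79% of 10834 genes were called. APOB was the 1 of 4 members with an unadjusted p under 0.05, where 2255 of the 10834 genes had that. It passed the threshold when a mean of 5 tags was required and in edgeR with TMM. No member peak of 55 was called and edgeR with library totals called 1, where 0.186% of 200232 peaks were called. At an unadjusted p under 0.05 there were 13 of the 55, against 22471 of all 200232 peaks. Most of the 55 lie in APOB and share the same libraries, so they are not independent. Peak chr2:21002369-21002389 differed by +1.62 ± 0.31 (adjusted p = 0.072), and passed in 4 of 10 other settings.

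The arsenite change of APOB differed between fractions. The nuclear minus the cytoplasmic change was +0.64 ± 0.20 (limma interaction over 12 libraries, adjusted p = 0.022), the 1 call among 4 members, where 13.4% of 12723 genes were called. The call held in 5 of 12 fits with 1 library left out and was lost without cytoplasmic arsenite 2 or 3, cytoplasmic mock 2 or 3, nuclear arsenite 1 or 2, or nuclear mock 3 (adjusted p 0.067 to 0.15). At single peaks, 1 of 75 was called, CDS peak chr2:21007166-21007186 (adjusted p = 0.033), where 0.352% of 334689 peaks were called, 1064 positive and 115 negative. This peak had 11 cytoplasmic tags and none in nuclear mock libraries, so the fitted size of its interaction, +1.77, depends on the pseudocount and went from 0.62 to 7.08 over 8 other settings. The call was lost in 4 of these 8 (both edgeR fits, the smaller pseudocount and scaling to tags in peaks) and held in 1 of 12 fits with 1 library left out, the one without cytoplasmic mock replicate 1. In mock libraries the peak was at least 3.60-fold lower in the nucleus. It met the filter of the mock comparison only through the cytoplasmic libraries, so this fold is no support for a difference. By class, 27 CDS peaks of APOB had a positive and 5 a negative interaction, intron peaks 8 and 13, 3'UTR peaks 5 and 4, and TE peaks 1 and 2. The median interaction over all peaks of the table was -0.08. Peaks of a gene share its RNA and the same 12 libraries, so these signs are not independent observations, and they were not tested. Many of these peaks held few or no nuclear mock tags, where the value depends on the pseudocount.

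In the APEX lines APOB was thinly covered, and no contrast called it. The level was 20.5 ± 8.24 CPM (n = 3) in NLS and 28.8 ± 35.5 (n = 4) in NES enriched mock libraries, from 27 and 6 tags. After arsenite it was 29.0 ± 20.2 (n = 3) and 42.0 ± 60.04 CPM (n = 3), from 30 and 19 tags. The NES arsenite mean leaned on replicate 1, which had 157 CPM from 6 tags. Over pooled tags NLS and NES had 19.9 and 19.5 CPM in mock and 25.8 and 16.3 CPM in arsenite libraries. In limma with the library set as covariate, NLS minus NES was 0.58 ± 0.84 in mock (adjusted p = 0.65) and 0.09 ± 0.60 in arsenite libraries (adjusted p = 0.94). Of all genes, 18.1% of 2910 and 6.66% of 3576 were called, with median differences of 1.10 and 0.88. Within library sets the sign of the APOB difference changed: -0.65 and -0.93 in JL0388, 1.80 and 1.11 in JL1024. Scaled to tags in peaks, the arsenite difference was -0.52. Where fractions showed APOB lower in the nucleus, the proximity libraries thus showed no settled direction.

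G3BP enriched libraries held 76 APOB tags after arsenite and 23 in mock libraries. By set there were 47 and 4 in JL0361, 23 and 2 in JL0388, and, the other way round, 6 and 17 in JL1024. The level was 53.3 ± 56.1 CPM (n = 6) after arsenite and 24.0 ± 26.2 (n = 5) in mock libraries. Over pooled tags it was 52.7 and 15.8 CPM. The mock mean leaned on replicate 3, which had 136 CPM from 2 tags. Arsenite minus mock was 1.58 ± 1.14 (limma, adjusted p = 0.54), and within sets JL0361, JL0388 and JL1024 it was 1.01, 2.90 and 0.93. The value of JL1024 rested on arsenite replicate 7 (5 tags, 74.7 CPM), since replicate 6 (1 tag, 8.54 CPM) lay below both mock libraries (11.97 and 13.8 CPM). Of 2796 genes 0% were called, 317 had an unadjusted p under 0.05, and edgeR with library totals called 63 but not APOB. G3BP minus NES was 0.05 ± 1.57 in mock libraries (adjusted p = 0.995), where 0% of 1703 genes were called, 87 had an unadjusted p under 0.05 and edgeR called up to 6. Within sets this mock difference was -1.45 in JL0388 and 1.54 in JL1024, and scaled to tags in peaks it was -0.40. After arsenite G3BP minus NES was 1.01 ± 0.77 (adjusted p = 0.47), near the median of 0.98 over all genes, where 3.66% of 2512 genes were called; it was 0.35 in JL0388 and 1.66 in JL1024. With values scaled to tags in peaks it was 0.04.

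In the input libraries APOB had 635 tags after arsenite and 308 in mock libraries. The difference was 0.59 ± 0.69 with line and set as covariates (limma, adjusted p = 0.78), and 0.70, 0.79 and 0.29 within JL0361, JL0388 and JL1024. Of 7470 genes 0% were called, 678 had an unadjusted p under 0.05 and edgeR with library totals called 419, not APOB.

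Class shares are given for libraries with at least 10 APOB tags. In G3BP inputs introns held 35.2% ± 2.69 of APOB tags in mock (n = 2) and 5.64% ± 5.08 in arsenite libraries (n = 3), while CDS peaks held 46.2% ± 11.4 and 75.8% ± 5.56. The intron shares rested on 20 of 56 mock and 12 of 244 arsenite tags, and the SD does not give their counting error. In NLS inputs the intron share was 18.9% ± 0.814 and 14.1% ± 4.01 (n = 2 each). In the single NES inputs it was 26.7% in mock (Wilson 95% interval 17.1 to 39.0) and 16.4% in arsenite (8.86 to 28.3), an interval that covers counting error only. The intron share was thus lower in arsenite than in mock inputs of G3BP, where no library overlapped. For NLS it rested on 2 libraries a group, and for NES on single libraries whose intervals overlapped. In the fractions the intron share went up after arsenite in the cytoplasm, from 10.0% to 23.1%, and down in the nucleus, from 50.1% to 43.0%. None of these differences in share was tested. The 3 G3BP enriched arsenite libraries with enough tags had 68 APOB tags, none in introns, with 37.5% ± 20.8 in 3'UTR and 62.5% ± 20.8 in CDS peaks. The 1 such G3BP enriched mock library had 1 intron tag of 13 (7.69%, Wilson 95% interval 1.37 to 33.3), and all G3BP enriched mock libraries together 5 of 23. The 1 such NLS enriched library, from arsenite cells, had 5 intron tags of 11 (45.5%, Wilson 21.3 to 71.99).

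The other members were near the floor of detection. APOA2 (ENSG00000158874, chr1:161222292-161223628, minus strand) had 24 tags in 11 libraries, all in 3'UTR peaks chr1:161222490-161222510 (18 tags) and chr1:161222295-161222315 (6 tags). It had 2, 2 and 1 tags in cytoplasmic mock, 4, 6 and 3 in cytoplasmic arsenite, 1, 0 and 0 in nuclear mock and 0, 1 and 1 in nuclear arsenite libraries. Its nuclear minus cytoplasmic difference was -0.57 ± 0.30 in mock (limma, adjusted p = 0.17) and -0.85 ± 0.29 in arsenite libraries (adjusted p = 0.069, unadjusted 0.0065). The arsenite fractions did not overlap in CPM. None of the 29 enriched libraries, with 519 to 86419 tags in peaks each, held an APOA2 tag.

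APOE (ENSG00000130203, chr19:44905796-44909393, plus strand) had 20 tags in 13 libraries, at most 4 in any. Its 3'UTR peak chr19:44909372-44909392, 0.011 kb from the gene's end, held 14 tags and its CDS peak chr19:44908553-44908573 held 6. Fraction libraries held 7 of the tags, 1 or 2 per group, and no difference passed the threshold (nuclear minus cytoplasmic -0.07 ± 0.30 in mock, limma, adjusted p = 0.89).

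APOH (ENSG00000091583, chr17:66212033-66229415, minus strand) had 41 tags in 17 libraries, 28 in 4 intron peaks and 13 in 2 CDS peaks. The intron peak chr17:66214902-66214922 with 9 tags and the CDS peak chr17:66220615-66220635 with 8 were the largest. Cytoplasmic libraries had 3, 2 and 3 tags in mock and 4, 3 and 1 after arsenite, and nuclear libraries 3, 0 and 1 in mock and 5, 5 and 2 after arsenite. The nuclear minus cytoplasmic difference was -0.46 ± 0.40 in mock (limma, adjusted p = 0.41) and 0.46 ± 0.33 after arsenite (adjusted p = 0.48), and the groups overlapped. APOA1 (chr11:116835751-116837622) had no peak under that name. No difference of APOA2, APOE or APOH between groups passed the adjusted threshold at these depths.

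A list of 41 other genes held 15 with an apolipoprotein name, APOO and APOOL among them, and others chosen for a role in lipoprotein metabolism. A role of each of the 15 in lipoprotein metabolism was not checked. Of the 41 genes, 24 had a peak and 23 were tested between mock fractions. Of these, 9 were lower and 2 higher in the nucleus, with a median of -0.50, and 12 had an unadjusted p under 0.05. Over all 10690 genes 32.2% were called, 1958 lower and 1481 higher, with a median of 0.00, and 4505 had an unadjusted p under 0.05. Of the 7 listed genes of lipoprotein assembly and secretion tested, 5 were lower and 0 higher. SORT1, a sorting receptor, had 150 ± 6.77 CPM in the cytoplasm and 28.6 ± 5.19 in the nucleus (-2.32 ± 0.16, limma, adjusted p = 9.7e-08). SURF4, a cargo receptor of the endoplasmic reticulum, had 92.2 ± 10.3 and 17.97 ± 1.84 CPM (-2.22 ± 0.18, adjusted p = 3.0e-07). SDC1, a heparan sulphate proteoglycan that takes up remnants, had the largest difference (-2.46 ± 0.13, adjusted p = 1.1e-08). LIPC, hepatic lipase, was higher in the nucleus (+0.71 ± 0.18, adjusted p = 0.0078). MTTP, which loads lipid onto the APOB protein, was lower in the nucleus (-1.12 ± 0.16, adjusted p = 0.00011).

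After arsenite, 5 of 23 were lower and 0 higher in the nucleus, with 8 at an unadjusted p under 0.05. Of all 11561 genes 8.02% were called, 631 lower and 296 higher, and 2417 had an unadjusted p under 0.05. The largest differences were those of KLHL12 (-1.06 ± 0.20), SURF4 (-1.05 ± 0.17) and SORT1 (-1.05 ± 0.15). A1CF, the RNA-binding cofactor of APOB mRNA editing, was lower in the nucleus in mock (-0.50 ± 0.11, limma, adjusted p = 0.0027) and in arsenite libraries (-0.50 ± 0.08, adjusted p = 0.00011).

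Arsenite changed 10 of the 23 in the cytoplasm, 8 downwards, where 20.1% of all genes were called, 1133 lower and 1152 higher. SDC1 fell from 527 ± 66.2 to 116 ± 10.9 CPM (-2.15 ± 0.13, limma, adjusted p = 4.1e-08), ABCA1, the cholesterol exporter, by 1.74 ± 0.13 and SORT1 by 1.18 ± 0.13. RBM47, another editing cofactor, rose in the cytoplasm (+0.47 ± 0.16, adjusted p = 0.048). The interaction was called for 7 of 24, all positive, where 13.4% of all genes were called, 1025 positive and 681 negative. The largest were those of SDC1 (+2.28 ± 0.18), ABCA1 (+1.55 ± 0.16) and SORT1 (+1.27 ± 0.23). These comparisons share libraries, so their calls are not independent of each other.

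In the enriched mock libraries, LIPC, SURF4, MTTP and SCARB1 had tags in NLS and none in any NES library. They could be tested only through NLS, and NES libraries held 2981 to 5011 tags in peaks against 20609 to 34803 in NLS, so no test is given for them. None of the other 8 of the 12 genes tested was called, where 18.1% of all genes were called, 527 higher and 0 lower, with a median difference of 1.10. After arsenite 1 of 8 was higher in NLS (A1CF, +2.24 ± 0.55, limma, adjusted p = 0.028), where 6.66% of all genes were called, 238 higher and 0 lower, with a median difference of 0.88. In this contrast edgeR with TMM called 46 genes, and fits with 1 library left out called 0 to 415. The pairs counted once in means entered it as separate libraries. No listed gene was called in the other APEX contrasts, where 0 of 7, 4 of 8, 1 of 9 and 1 of 19 had an unadjusted p under 0.05 (G3BP minus NES in mock and arsenite, arsenite in G3BP enriched libraries and in inputs). Over all genes, in the same order, 87 of 1703, 532 of 2512, 317 of 2796 and 678 of 7470 had an unadjusted p under 0.05.

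Over the 12 fraction libraries, the genes whose log2 levels followed those of APOB most closely were SKP2 (Pearson r = 0.973), RBBP4 (r = 0.971) and ANP32E (r = 0.967). They were taken from 1760 genes with a mean of at least 50 tags, whose 95th percentile of r was 0.919. RBBP4 went from 173 CPM in cytoplasmic mock to 51.4 in nuclear mock libraries, and ANP32E from 208 to 24.5. These values are descriptions over libraries that share 1 set and 4 groups.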

How the data were processed

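The 58 HuR CLIP-seq libraries fall into 16 groups, assigned by their titles. Per the submitters' processing notes, Bowtie2, HOMER, SAMtools, bedtools and the build GRCh38.p14 were used; settings, duplicate removal and the base of coordinates are not given in the sources used here, and coordinates are printed as deposited. The authors deposited a signal per 20-nt peak and library, tags divided by a library total (4662 to 2622677); whole tags were recovered for 100% of values (tolerance 0.01). The deposited peak score and the deposited numbers of libraries with a tag were not used in tests. Of 395471 lines, 8257 repeats were dropped. No sequence is printed.

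The genes and lists were chosen with earlier results of these data known. Peaks, gene classes and genes were tested over the whole table with limma 3.58.1 (R 4.3.3; lmFit, eBayes with trend, two-sided) on log2(value + 2.28 CPM), the median of the smallest non-zero values. A feature was tested when the number of libraries with a tag reached the size of the smaller group. Library set, and line for inputs, were covariates. Replicate numbers were not used to pair libraries in the main tests. Same-numbered deviations correlated at -0.0555 to 0.0479 in fractions and -0.688 to 0.190 in APEX contrasts. Counting noise at low tags weakens such correlations, so they cannot exclude a pairing. Of 32 replicate pairs, 5, all in JL0388, could not be told apart beyond counting noise and were counted once in means and SD; tests kept them. Alternatives used edgeR 4.0.16 on the recovered whole tags, DESeq2 1.42.0, and other pseudocounts, filters and scalings. Tests were checked on simulated data. Python 3.11.15 with pandas 2.3.3 and scipy 1.17.1 was used.

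Named peaks were the 2 with the most tags of each gene and, in each fraction test, at most 2 called peaks per gene and direction by absolute difference. Lipoprotein genes were named where called, at most 3 per direction, besides MTTP and A1CF, chosen for their roles after their values were seen; values of 1 listed gene are not reported here.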

Additional observations from a re-analysis of the deposited data

Results flagged for a closer look

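In the G3BP enriched arsenite group, replicate 4 had 237 CPM of APOB (21 tags of a library total of 88707), and the nearest of the other 6 libraries had 74.7 CPM. This library and replicate 5 (71.3 CPM) could not be told apart beyond counting noise and were counted once in means. In the G3BP enriched mock group, replicate 3 had 136 CPM from 2 tags (library total 14760), and the nearest library had 26.4 CPM; this library too was 1 of a pair counted once. Each stood farther from its group than Dixon's 95% value allows, with the libraries of these pairs taken as separate (n = 7 and n = 6). The mock value lies below the floor of 3 tags in its library, 203 CPM. Of 8 groups tested, chance marks about 1 in 20.

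The arsenite change differed between fractions, nuclear minus cytoplasmic, by 0.64 on the log2 scale for APOB as a gene in limma's interaction test. For its CDS peak chr2:21007166-21007186 the same test gave 1.77, a size that rests on the pseudocount, since nuclear mock libraries held no tag there. It went from 0.62 to 7.08 over 8 other settings, 4 of which lost the call, as did 11 of 12 fits with 1 library left out.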

How the results depend on the processing

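Single values of members were recomputed under 1713 alternatives, of which 1604 kept their side of the threshold, 83 lost and 26 gained a call and none reversed a call; 74 of the 1604, all without a call, changed sign. Counts of calls and class shares were recomputed under 415 alternatives, of which 344 gave a count within 1.5 times the reported one, the 48 of class shares among them. For gene classes, cytoplasmic arsenite against mock called 2 members with no filter, with a mean of 5 tags, in edgeR (library totals and TMM), with the replicate block and in 1 fit of 12 libraries, and 0 to 2 with 1 library left out; nuclear arsenite against mock called 0 to 1 so. For genes, leaving out 1 library gave 0 to 1 calls in cytoplasmic arsenite against mock, in the interaction and between arsenite fractions, and nuclear arsenite against mock called 1 with a mean of 5 tags and in edgeR with TMM. For peaks, mock fractions called 5 with a pseudocount 4 times smaller, 1 in edgeR with TMM and 18 in 1 fit of 12 (0 to 5 with 1 left out). Arsenite fractions called 0 with a pseudocount 4 times larger, 3 with a mean of 5 tags and 2 in edgeR with library totals (0 with 1 left out). Cytoplasmic arsenite against mock called 9 with a mean of 5 tags and in 1 fit of 12 (0 to 3), nuclear arsenite against mock 1 with no filter, in edgeR with library totals and in 1 fit of 12 and 2 with a mean of 5 tags (0 to 2), and the interaction 0 with the smaller pseudocount, with scaling to tags in peaks and in both edgeR fits and 2 with a mean of 5 tags (0 to 1). The cause of these changes was not tested, beside the fewer libraries or features of some settings. Over the whole table, calls also moved: between mock fractions 4437 peaks against 1832 in edgeR with TMM and 16559 in 1 fit of 12, and for NLS against NES in mock 527 genes against 5 in edgeR with library totals. With the replicate number as a block, 3389 genes were called between mock fractions in place of 3439 and 2347 peaks in cytoplasmic arsenite against mock in place of 1473; besides the second gene class above, 4 member peaks against 3 were called there. Motifs were not run, since no genome was used here. Depth limits the enriched libraries (519 to 86419 tags in peaks) and APOA2, APOE and APOH, with at most 6 tags in a library.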
